A study of Homo sapiens with 47 samples.

Results

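The 10 nuclear subunit genes of cytochrome c oxidase examined here are COX4I1, COX5A, COX5B, COX6A1, COX6B1, COX6C, COX7A2, COX7B, COX7C and COX8A. They were taken by name, as subunits of 1 enzyme and not by a threshold on their values, and all 10 had a row among the 18651 gene rows of the table. Each was measured in 47 single cells of HEK293, an established human embryonic kidney line, grown in DMEM with fetal calf serum and given no treatment. The cells went through a microfluidic chip and 1 named sequencing run, and the labels do not say whether they came from separate cultures, so all spreads below are spreads between these cells. The libraries counted the 5' ends of polyadenylated RNAs. A copied mRNA molecule receives a random tag, and distinct tags (unique molecular identifiers, UMIs) are counted in place of reads, so a count needs no division by transcript length. How completely each mRNA was captured is not known, and levels of different genes are compared below as UMIs only.

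Cytochrome c oxidase, or complex IV, is the last enzyme of the mitochondrial respiratory chain. It passes electrons from cytochrome c to oxygen and pumps protons across the inner mitochondrial membrane. Its catalytic core consists of the products of MT-CO1, MT-CO2 and MT-CO3, which are transcribed and translated inside the mitochondrion. The small subunits around the core are encoded in the nucleus, translated in the cytosol and imported, so that the enzyme draws on both genomes. In the assembled enzyme each of these subunits is present in equal number.

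A cell had 29325 to 138647 endogenous UMIs (median 59689) and 2573 to 4717 UMIs of ERCC spike-ins, synthetic RNAs added in equal amount to every chamber. Of the marker genes that were looked up, the neurofilament and UCHL1 genes known from this line had UMIs (1391 in all, 0.00812% to 0.131% of a cell). No marker of blood cells had a row, and markers of fibroblasts, muscle and liver had 13, 5 and 4 UMIs in all. The epithelial keratins KRT8 and KRT18 had 348 UMIs together, while the epithelial marker EPCAM had no row. Cell 52 stood apart, with 18.7% of its UMIs from mitochondrially encoded RNA, against at most 9.59% in the other cells, and values below are given with and without it where it matters.

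The nuclear subunit mRNAs, with 30287 UMIs, made up 1.04% of all endogenous UMIs (exact binomial 95% interval 1.03% to 1.05%, counting error only). The mitochondrial MT-CO1, MT-CO2 and MT-CO3 made up 0.875% (0.864% to 0.885%). Every one of the 10 genes had UMIs in all 47 cells. They were not equally abundant: from the most to the least abundant gene the summed counts fell from 7231 to 828 UMIs. COX7C alone held 23.9% of the nuclear subunit UMIs and COX8A held 2.73%.

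COX7C, a small membrane subunit, had 45 to 316 UMIs per cell, with a median of 160 (mean 154 ± 55.9, SD, n = 47). It ranked 76 among all genes and was the highest of the 10 in 47 of 47 cells. Divided by the spike-in recovery of each cell, this came to about 855 molecules in the median cell, if endogenous mRNA is counted as efficiently as spike-ins. COX6B1, which faces the intermembrane space near the docking site of cytochrome c, followed with 23 to 162 UMIs and a median of 77 (82.2 ± 30.5). It was above COX5A, the next in the order, in 40 of 47 cells, with 1 tie.

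COX5A, COX7A2, COX7B and COX4I1 formed a middle group whose order was not stable from cell to cell. COX4I1 and COX5A are subunits that join the core early in assembly. COX5A had 15 to 176 UMIs (median 64, mean 67 ± 32.6) and COX4I1 had 21 to 165 (median 60, mean 61.5 ± 28.3). COX7A2, the widely expressed form of subunit 7A, had 19 to 178 (median 60, mean 64.9 ± 30.2). COX7B had 16 to 118 (median 60, mean 63.1 ± 22.6). Between neighbours in this group the higher gene by sum was the higher one in 22, 23 and 26 of 47 cells, and the mean differences of 1.6 to 2.13 UMIs were far below their SDs over cells of 19.6 to 22.3. The order of these 4 genes was thus not fixed over cells. An SD over cells is not the error of a mean difference, and the mean differences were not tested.

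COX6C, COX5B, COX6A1 and COX8A lay below them. COX6C, a subunit with a membrane helix, had 14 to 135 UMIs (median 51, mean 53.5 ± 22.8), and COX5B, the zinc-binding subunit on the matrix side, had 18 to 113 (median 45, mean 48.1 ± 23.2). COX4I1 exceeded COX6C in 29 cells and COX6C exceeded COX5B in 31, with differences of 8.02 ± 16.4 and 5.38 ± 16.2 UMIs (SD over cells). These mean differences were not tested either. COX6A1, the widely expressed form of subunit 6A, had 8 to 78 (median 32, mean 32.5 ± 14.2). COX8A, the widely expressed form of the smallest subunit, had 2 to 39 (median 18, mean 17.6 ± 9.09), about 99.2 molecules in the median cell by the same estimate. COX6A1 was above COX8A in 44 of 47 cells, and COX8A was the lowest of the 10, ties included, in 43 cells. The top and the bottom of the order were therefore the same in nearly every cell, while the middle was not.

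**Figure D1:**
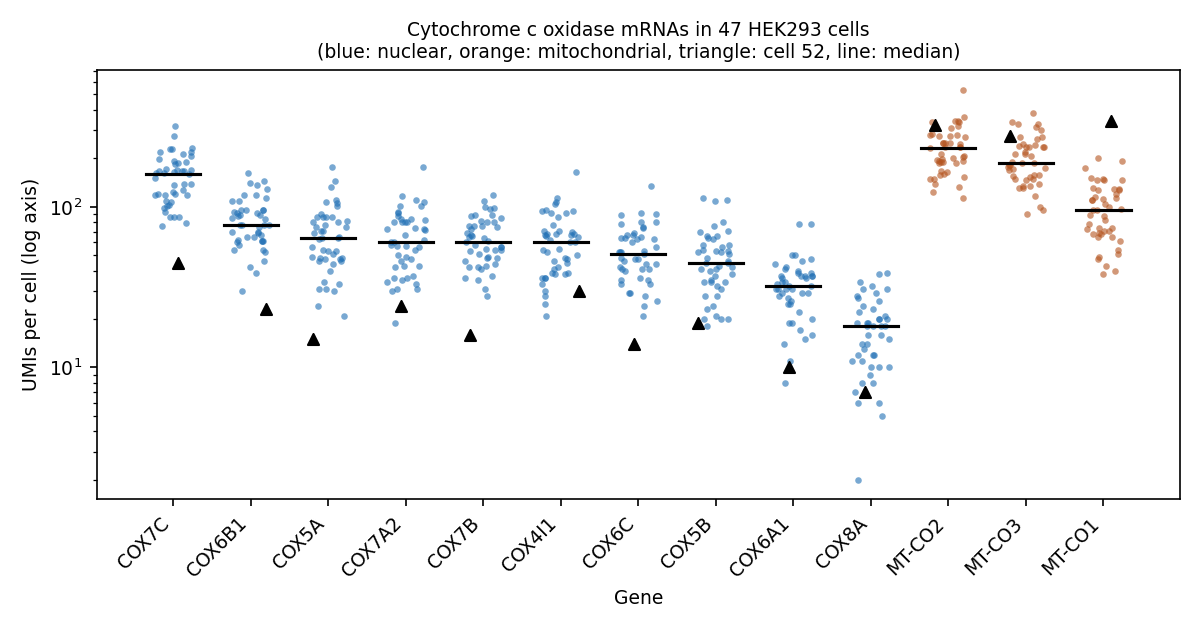
UMIs per cell (log axis, not scaled for depth) of the 10 nuclear and 3 mitochondrial COX genes, each point 1 of 47 cells, lines at the medians and triangles for cell 52. COX7C is the highest nuclear gene in every cell and COX8A the lowest in 43, while cell 52 lies low for the nuclear and high for the mitochondrial genes.

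Paralogs of these subunits differed widely in level. COX6B2, a testis form of COX6B1, had 1 UMI against 3865 of COX6B1, or 0.0259% of the pair (exact binomial interval 0.000655% to 0.144%). COX4I2, COX6A2, COX7A1, COX7B2 and COX8C had no row and are not analysed here. COX7A2L, a relative of COX7A2 that acts in the assembly of respiratory supercomplexes, had 2 to 34 UMIs (median 14) in all 47 cells, 17.4% of the UMIs of that pair. NDUFA4, first described as a complex I subunit and later assigned to cytochrome c oxidase, had 18 to 165 UMIs (median 69, mean 73.6 ± 27.1) and so lay between COX6B1 and COX5A. Its hypoxia-induced relative NDUFA4L2 had 1 UMI.

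Processed pseudogenes of these subunits are common in the genome, and the counts depend on how reads shared with them were assigned. The table held 7 rows of such copies, for 5 of the 10 genes, with 55 UMIs in all. COX7CP1 had 36 UMIs in 24 cells, 0.495% of its UMIs and those of COX7C together (0.347% to 0.685%), and COX6A1P2 had 9. The other 5 rows had 1 to 3 UMIs each. The counts of genes with such copies are uncertain for this reason.

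All nuclear subunits varied over cells by more than counting error, and COX7A2 and COX7C had the highest indices among them. Spread is given as an index of dispersion. It is a chi-square statistic over its degrees of freedom, with expected counts set by the endogenous total of a cell, so that counting error alone gives 1. For spike-ins the expected counts were set by the spike-in total of a cell instead. All 10 genes exceeded counting error (chi-square test, Benjamini-Hochberg over 1830 genes with a mean of at least 5 UMIs per cell, adjusted p at most 3.34e-05). This is no mark of these genes, since 97.9% of all genes tested did so, and so did 24 of the 26 spike-ins of that abundance. The median index of the 10 was 3.36, against 2.46 for all genes tested and 1.96 for the spike-ins, and it ran from 2.08 to 4.18. Since the index grows with abundance for a given relative spread, genes and spike-ins of like abundance, within 1.5 times of the mean, are given beside single genes below.

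By the index, COX4I1 and COX6B1 were the most even. The share of COX4I1 in a cell ran from 0.051% to 0.137% with a median of 0.0958%, and its index of 2.08 was within the 1.48 to 2.26 of the 4 spike-ins of like abundance. Only 4.1% of the 122 genes of like abundance had a lower index. For COX6B1 the share ran from 0.0703% to 0.201% (median 0.129%), the index was 2.14, and 10.3% of 87 such genes were lower. The single spike-in of like abundance to COX6B1 was lower too, with 1.48. Beyond counting error this left a coefficient of variation of 13.3% for COX4I1 and 11.8% for COX6B1.

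COX7A2 and COX7C had indices of 4.18 and 3.88, above the highest spike-in index of 3.76, as did 11.7% of all genes tested. Cell 28 had the lowest share of COX7A2, 0.0452%, and cell 31 the highest, 0.178%, with a coefficient of variation beyond counting error of 22.1%. For COX7C it ran from 0.138% in cell 52 to 0.365% in cell 23, and the corresponding value was 13.7%. On this relative scale COX7C was close to COX4I1 (13.3%), and of the 10 genes only COX4I1 and COX6B1 were lower. Spike-ins of like abundance were lower in both cases: 4 beside COX7A2 had an index of at most 2.26 (16.3% beyond counting error) and 2 beside COX7C at most 1.89 (6.39%). Without cell 52 the highest spike-in index was 3.84 and only COX7A2 was above it, as were 10.2% of genes. Among genes of like abundance neither was extreme: 78.9% of 114 genes had a lower index than COX7A2, and 52.5% of 61 a lower one than COX7C.

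COX8A had the widest relative spread, from 0.00615% in cell 10 to 0.0666% in cell 28, or 33.3% beyond counting error. At its mean of 17.6 UMIs, 3 spike-ins of like abundance had indices of 1.92 to 2.66, against 2.95 for COX8A. The highest of them reached 29.8% beyond counting error. How much of the COX8A spread is technical was not tested. COX6A1 followed with 27.8% (share from 0.0159% in cell 44 to 0.102% in cell 51), against at most 22% in 6 spike-ins. For the remaining COX5A, COX5B, COX6C and COX7B the values lay between 17.1% and 23.5%, with indices from 2.95 to 3.66. The mitochondrial MT-CO1, MT-CO2 and MT-CO3 had indices of 42.5, 17.3 and 15.2, and 63.2%, 26.3% and 26.3% beyond counting error. On the relative scale, with cell 52 included, only MT-CO1 was above all nuclear genes, and MT-CO2 and MT-CO3 were below COX8A and COX6A1. Cell 52 had the highest share of each mitochondrial gene, 1.05% for MT-CO1 against a median of 0.153%. Values of single mitochondrial genes without cell 52 were not computed, so the place of MT-CO1 may rest on that cell.

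**Figure D2:**
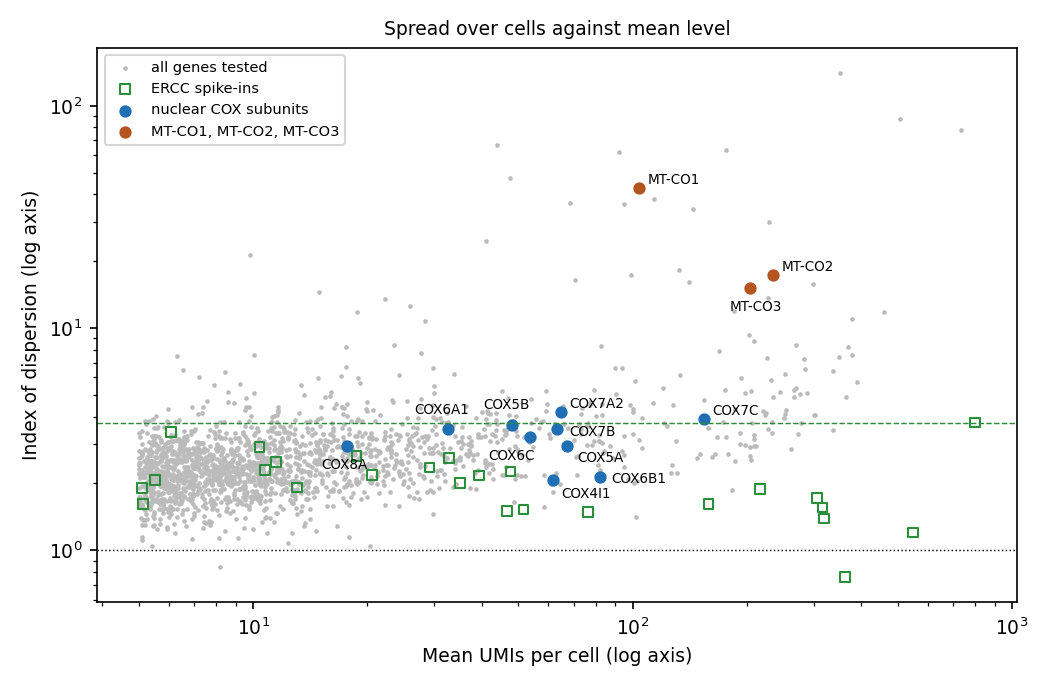
Index of dispersion over 47 cells (log axis) against mean UMIs per cell (log axis) for 1830 genes, 26 spike-ins, the 10 nuclear and the 3 mitochondrial COX genes. The dotted line is counting error (1), the dashed line the highest spike-in index (3.76), which COX7A2 and COX7C exceed slightly and the mitochondrial genes by far.

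Summed over the 10 genes, the nuclear share varied less over cells than that of the mitochondrial subunits. It ran from 0.621% in cell 52 (exact binomial interval 0.538% to 0.712%) to 1.31% in cell 22 (1.22% to 1.42%), with a median of 1.05% and an SD of 0.114. The next lowest cell had 0.829%. Beyond counting error the summed share varied by 8.66% over cells, and by 7.54% without cell 52. The summed share of MT-CO1, MT-CO2 and MT-CO3 ran from 0.583% in cell 33 to 2.88% in cell 52 (median 0.87%), with 31.7% beyond counting error and 20.6% without cell 52. The nuclear sum covers 10 genes and the mitochondrial one 3, and a sum over more genes can even out the spread of single genes. The ratio of nuclear to mitochondrial COX UMIs was 1.21 at the median, from 0.216 in cell 52 to 2.08 in cell 22, and 0.771 was the lowest of the other cells.

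Cell 52 combined the lowest nuclear with the highest mitochondrial share. It had 203 UMIs of the 10 nuclear genes and 941 of the 3 mitochondrial ones. All 10 nuclear genes were below their median share there, and COX5A, COX6B1, COX7B and COX7C had their lowest share of all cells. Of 433 other nuclear genes with a mean of at least 20 UMIs, 25.4% were lowest in that cell, and the median share there was 0.719 times the usual one, against 0.593 for the 10 genes. Mitochondrial RNA takes up part of the total, so shares were also computed without it. COX5A, COX6B1 and COX7C were then still lowest in cell 52, while COX4I1 ranked 30 of 47 from the lowest. The median of the 10 genes in cell 52 was 0.692 times their median over cells, against 0.833 for the same 433 genes, of which 14.5% were lowest there. Per spike-in UMI, cell 52 had 0.0558 nuclear COX UMIs (others from 0.11) and 0.259 mitochondrial ones (others up to 0.239).

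Single pairs of nuclear subunits were weakly correlated from cell to cell, though a part of the spread was shared by some of the 10 genes. Over the 45 pairs of the 10 genes the mean Spearman's rho of depth-scaled counts was 0.0853 (median 0.0642, n = 47 cells), and 30 pairs were above 0. Without cell 52 the mean was 0.0508. The sum of the 10 genes had an index of dispersion of 5.84, above the 4.18 of the highest single gene. Without cell 52 these were 4.71 and 4.19. The index of this sum was not compared with that of sums of other nuclear genes. Over all pairs of the 459 genes with a mean of at least 20 UMIs the median rho was 0.0256 and 55.9% were above 0, values close to those of the subunits; no test was made of the difference. The 3 pairs of MT-CO1, MT-CO2 and MT-CO3 had rho from 0.645 to 0.79, and 0.621 to 0.776 without cell 52. Apart from COX7C, which had more UMIs than MT-CO1, the nuclear genes had smaller counts than the mitochondrial ones, and the part of counting error in the lower rho was not tested. No p-values are given because all cells share 1 run and 1 total per cell.

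**Figure D3:**
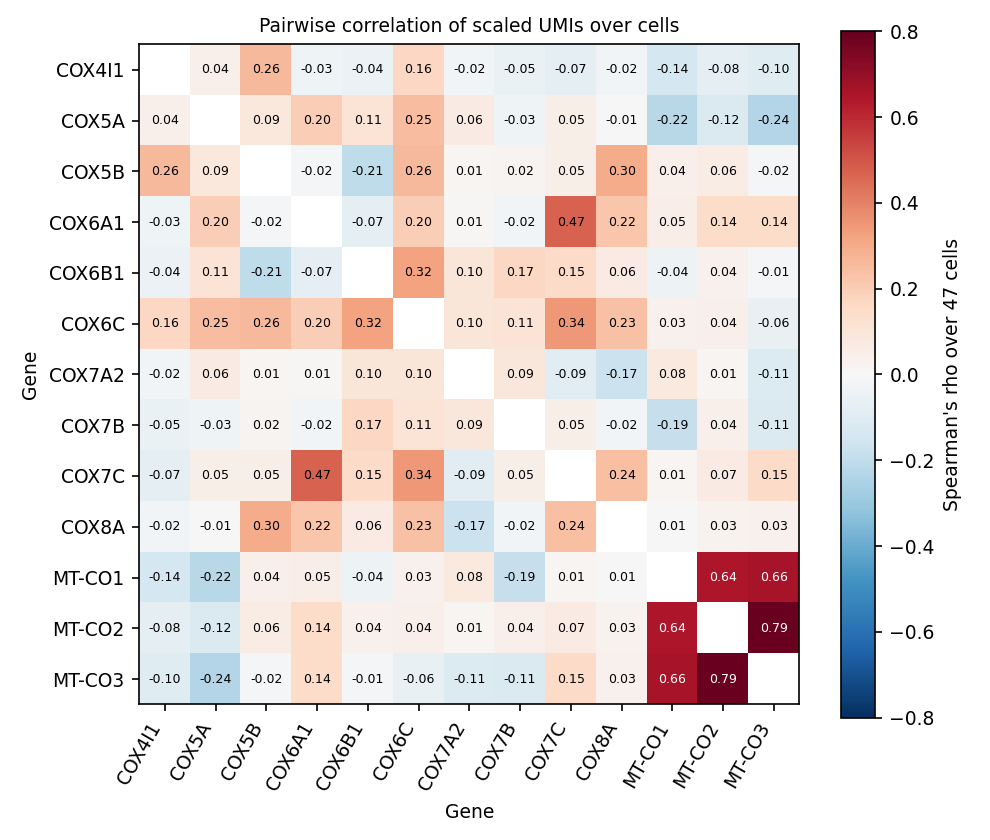
Spearman's rho over 47 cells between depth-scaled UMIs of each pair of COX genes (colour and printed value). The 3 mitochondrial genes form a block of 0.64 to 0.79, the nuclear genes reach at most 0.47 among themselves, and nuclear with mitochondrial pairs lie between -0.24 and 0.15.

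The highest nuclear pair was COX6A1 with COX7C, at rho = 0.474 (0.446 without cell 52). It was 0.564 in the 30 cells with label numbers up to 48 and 0.12 in the 17 above; the difference was not tested. COX6C was the subunit closest to the others: its share had rho = 0.55 with the summed share of the other 9 (0.524 without cell 52), and its pairs with COX7C and COX6B1 had 0.344 and 0.319. At the other end COX7A2 had 0.00254 with the other 9 and COX4I1 had 0.037. The lowest pair was COX5B with COX6B1, at -0.206.

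Many promoters of nuclear respiratory genes are known to be bound by the factors NRF1, GABP (an ETS factor) and YY1. RefSeq promoter sequences of GRCh38.p14, from 250 bases before to 50 after the start, were matched by symbol for 9 of the 10 genes. COX6C had no entry. Letters of 3 motifs were searched on both strands: GCATGCGC for NRF1, CCGGAAG for ETS factors and GCCATNTT for YY1, which overlap in no promoter shown here. GCATGCGC was found in COX5B and COX6A1 (2 of 9 genes) and in 3.05% of 35116 promoters. CCGGAAG was found in 5 of 9 (COX4I1, COX5B, COX6A1, COX6B1 and COX8A) and in 10.3% of promoters, and GCCATNTT in 4 of 9 (COX6A1, COX7A2, COX7B and COX8A) and in 6.58%. A gene was counted if any of its promoters matched, while the percentages are of single promoters, so the counts and percentages are not of like units. A match is a run of letters and not a site shown to be bound. The 250 bases before the start of COX6A1 and COX7C are shown because these genes formed the highest pair, and a part of COX5B because it holds the other NRF1 match; capitals mark the motif letters.
COX6A1, chr12:120437863-120438112, plus strand: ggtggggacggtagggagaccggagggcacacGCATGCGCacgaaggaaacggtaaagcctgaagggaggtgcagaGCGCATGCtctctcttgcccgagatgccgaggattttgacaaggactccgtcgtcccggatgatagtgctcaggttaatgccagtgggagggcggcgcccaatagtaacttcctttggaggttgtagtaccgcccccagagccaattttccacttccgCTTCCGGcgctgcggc
COX7C, chr5:86617691-86617940, plus strand: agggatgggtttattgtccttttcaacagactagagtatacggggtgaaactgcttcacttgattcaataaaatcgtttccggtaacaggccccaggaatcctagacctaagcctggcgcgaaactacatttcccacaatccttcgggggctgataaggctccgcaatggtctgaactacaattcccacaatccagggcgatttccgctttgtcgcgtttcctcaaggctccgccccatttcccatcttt
COX5B, chr2:97645902-97645961, plus strand: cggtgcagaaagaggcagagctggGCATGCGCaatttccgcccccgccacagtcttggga
COX6A1 held 2 NRF1 matches and 1 ETS match in these bases, and COX7C held no exact match to the 3 motifs. Near matches were not searched, and a role of these letters in the correlation of the pair was not tested.

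Genes with a pattern over cells most like the summed nuclear COX share were mostly those of the cytosolic ribosome. Among 450 other genes with a mean of at least 20 UMIs, the 8 with the highest Spearman's rho were RPL31, RPL37A, RPS27, RPS29, RPS13, RPL34, NDUFA4 and RPL39, from 0.645 down to 0.586 (0.622 to 0.558 without cell 52). NDUFA4, the only one of these that does not encode a ribosomal protein, had 0.587. The 4 lowest were PARP1, a DNA damage sensor, at -0.581, the histone variant gene H3F3B at -0.476, the RNA-binding HNRNPR at -0.466 and the chaperone HSP90AB1 at -0.453. The median over the 450 genes was 0.0875. It was 0.356 for the 77 ribosomal protein genes and 0.0488 for the other 373. Most ribosomal protein genes had larger counts than most of the others. The sets were not matched for abundance, and the part of counting error in this gap was not tested.

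The summed ribosomal protein share (84 rows, 18.2% to 31.5% of a cell) and the nuclear COX share had rho = 0.651 and Pearson's r = 0.74 over 47 cells, and rho = 0.627 and r = 0.636 without cell 52. The Spearman correlation was 0.617 for the 30 lower label numbers and 0.738 for the 17 higher ones. Both are shares of the same total. The relation was uneven among the subunits: COX6C had rho = 0.571 with the ribosomal protein share and COX7C had 0.509, COX8A and COX6A1 had 0.318 and 0.251, and COX5A had 0. The nuclear COX share and the endogenous total of a cell had rho = -0.249, -0.41 up to number 48 and 0.0196 above, so depth moved with it in a part of the cells and its role was not tested.

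Ribosomal protein mRNAs begin with a C followed by a run of C and T bases, the 5' terminal oligopyrimidine tract through which mTOR controls their translation. The starts of the subunit genes were read for this, since the libraries count 5' ends. A C followed by at least 4 C or T bases stood at the annotated start of COX7C and COX4I1, 2 of the 9 genes in the table, and at 4.07% of all 35116 promoters. Genes and promoters were counted as for the motifs above. The windows below run from 20 bases before to 10 bases after the start, with the pyrimidine run from the start on in capitals.
COX7C, chr5:86617921-86617950, plus strand: ccgccccatttcccatctttCTTTTCagtc
COX4I1, chr16:85799675-85799704, plus strand: ctccgcggcgcggccttgctCTCTTCCggt
The runs were 6 bases in COX7C and 7 in COX4I1, and rho with the ribosomal protein share was 0.509 for COX7C and 0.149 for COX4I1. COX6C, which had the highest rho with that share (0.571), had no promoter entry. A role of these runs in the relation was not tested.

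The relation of nuclear to mitochondrial COX mRNAs depended on the scale and on cell 52. Over the 30 nuclear with mitochondrial pairs rho had a mean of -0.0146, from -0.237 (COX5A with MT-CO3) to 0.15 (COX7C with MT-CO3), and 17 were above 0. Between the summed shares rho was 0.189, but Pearson's r was -0.38, and r turned to 0.191 without cell 52 (rho 0.268). Without cells 22 and 52, the 2 farthest from the median nuclear share, r was 0.305 and rho 0.342. The Spearman correlation was 0.257 in cells numbered up to 48 and 0.11 above. With mitochondrial RNA removed from both totals rho was 0.28, 0.365 without cell 52 and 0.445 without cells 22 and 52 (r = 0.412).

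Without scaling to the endogenous total, both sets of counts ran with the total of the cell. Unscaled, nuclear COX UMIs followed the endogenous total closely (rho = 0.958, n = 47), and mitochondrial ones less so (rho = 0.694). Per spike-in UMI, nuclear COX ran from 0.0558 to 0.314 (median 0.181) and mitochondrial COX from 0.0938 to 0.259 (median 0.14), and their rho was 0.531 (0.633 without cell 52). That value was 0.702 in cells numbered up to 48 and 0.284 above. On this scale a pair of the 10 nuclear genes had a mean rho of 0.554, and the median over all pairs of the 459 abundant genes was 0.512.

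**Figure D4:**
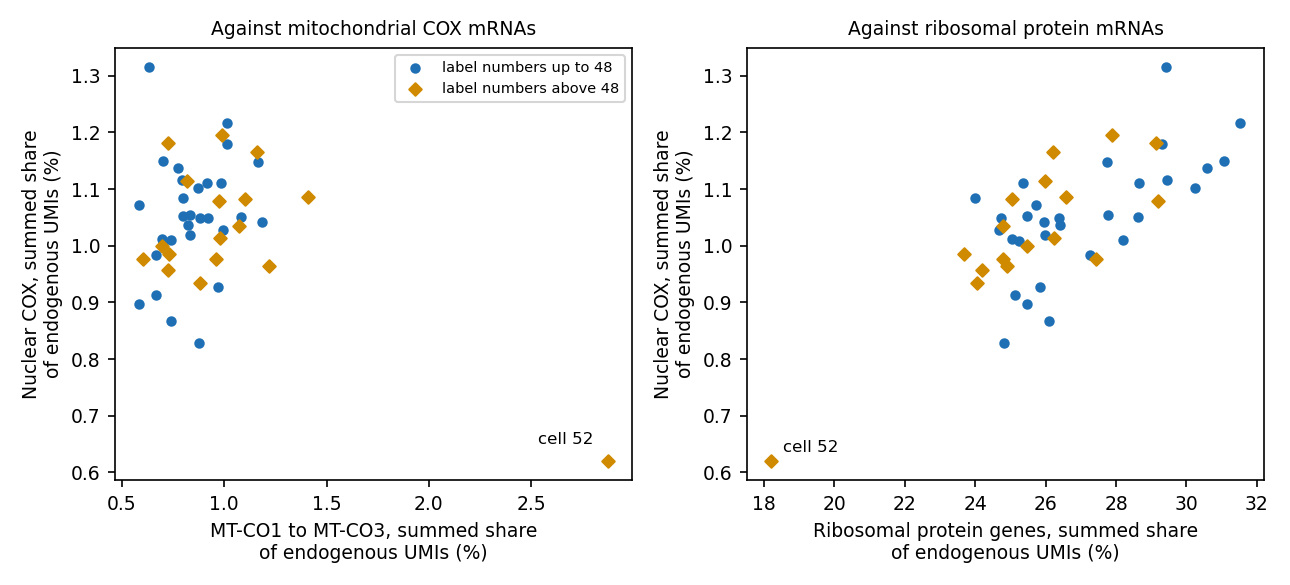
Summed share of the 10 nuclear COX genes (% of endogenous UMIs) against that of MT-CO1 to MT-CO3 (left) and of 84 ribosomal protein rows (right), each point 1 of 47 cells, with symbols for label numbers up to and above 48. Cell 52 lies alone at 0.621% nuclear COX, 2.88% mitochondrial COX and 18.2% ribosomal protein UMIs.

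Other nuclear parts of the respiratory chain were set beside the COX subunits with the same measures. The share of ATP synthase genes (17 genes, 1.67% of UMIs) had rho = 0.58 with the COX share, that of complex III and cytochrome c (9 genes, 0.654%) had 0.386, and that of complex I (35 genes, 1.3%) had 0.307. Without cell 52 these were 0.552, 0.345 and 0.261. In cells numbered up to 48 they were 0.55, 0.586 and 0.161, and above 48 they were 0.625, 0.0588 and 0.475. The order of complex III and complex I was thus not the same in both ranges, and the difference was not tested. Complex II, with 3 genes and 0.0433% of UMIs, had -0.228. Mean pairwise rho within the lists was 0.113 for the 17 ATP synthase genes, 0.0813 for 9 genes of complex III and cytochrome c and 0.0347 for 30 of complex I. It was 0.0853 for COX and 0.565 for the other 10 mitochondrial mRNAs. Over all pairs the mean was 0.0265 for the 459 abundant genes and 0.012 for all genes tested. Of the genes tested, 7 of 17 for ATP synthase, 1 of 9 for complex III, 4 of 30 for complex I, 0 of 2 for complex II and 9 of the other 10 mitochondrial mRNAs had an index above every spike-in, against 2 of 10 for COX and 11.7% of all genes.

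Factors that assemble the enzyme were far less abundant than its subunits. The list held 27 genes with rows, under current or older symbols, with a median of 5.4 UMIs per cell over genes, against 62.3 for the subunits, and a summed share of 0.409%. SLIRP, which with LRPPRC stabilises mitochondrial mRNAs, had 16 to 151 UMIs (median 74, mean 73 ± 28.3) and was the exception. COX17, the copper chaperone of the enzyme, had 5 to 66 (median 21), COX16 had 2 to 47 (median 16) and COA4 had 2 to 41 (median 17). All 16 assembly genes abundant enough to be tested exceeded counting error, as 97.9% of all genes did. COA6, which acts in copper delivery to MT-CO2, had the highest index, 4.15, the only one above every spike-in, with 1 to 45 UMIs and a median of 11, and SLIRP followed with 3.33. The summed assembly share had rho = 0.0469 with the COX share, and -0.0166 without cell 52.

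Regulators of respiratory genes were rarer still, with a median of 1.32 UMIs per cell over genes and a summed share of 0.195%. CHCHD2, a mitochondrial protein also reported to act in the nucleus on COX4I2 transcription, had 22 to 186 UMIs (median 76, mean 79 ± 34.1) and an index of 3.11. TFAM, which packages mitochondrial DNA, had 0 to 31 (median 10, index 3.11), TFB1M, a mitochondrial ribosomal RNA methyltransferase, had 1 to 31 (median 6), and YY1 had 0 to 16 (median 5). These 4 of 16 listed genes could be tested, all 4 exceeded counting error and 0 were above every spike-in. NRF1 itself had 19 UMIs, seen in 10 cells, GABPA 37 in 22 cells, and the coactivator gene PPARGC1A 7 in 3 cells, too few to relate their level in a cell to that of the subunits.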

How the data were processed

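The authors deposited 1 table of UMI counts, whole numbers per gene and cell, not normalized. Per the labels' protocols, lysis, reverse transcription with template switching and 18 cycles of amplification took place on a Fluidigm chip, 20000 ERCC molecules were added per cell, and 5' fragments were sequenced. Tools named in the submitters' processing notes are STAR 2.4.0a and cutadapt 1.2.1, with the builds hg19 and GRCh37. The annotation, UMI collapsing, use of strand and handling of reads with several matches are not given in the sources used here.

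A repeated header line (0.0602% of all values) was left out. All 47 columns matched a label, and 17819 of 18651 gene rows had a UMI. Shares are of endogenous UMIs. Correlations and list values used log2(1 + UMIs scaled to the median total) or shares; levels are unscaled UMIs. The index test ran on 1830 genes with a mean of at least 5 UMIs and was tested on simulated data. Alternatives were scaling by spike-ins, without mitochondrial RNA, by edgeR 4.0.16 TMM and by DESeq2 1.42.0 size factors, other minimums, thinning, and cells left out. Python 3.11.15, numpy 2.4.6, scipy 1.17.1, pandas 2.3.3 and R 4.3.3 were used. The members and lists were chosen with earlier results of these data known; the ribosomal protein set, the promoter motifs, cell 52 against other genes and transcript length were added after the counts were seen. Named genes are the members, MT-CO1 to MT-CO3, the isoforms, the 4 most abundant and the 2 most spread assembly and regulator genes, and the 8 highest and 4 lowest genes by rho with the COX share; NRF1, GABPA and PPARGC1A were named after their values were seen.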

Additional observations from a re-analysis of the deposited data

How the results depend on the processing

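All 10 subunits exceeded counting error under every scaling, in both ranges of label numbers, without cell 52 and with other minimums, except that a minimum mean of 20 UMIs left 9 to test, all of which passed. Over all genes 1791 of 1830 passed, 8001 of 9088 with at least 20 UMIs in all, 11534 of 17819 with no minimum and 458 of 459 with a mean of at least 20. Against 2 subunits above every spike-in, there were 1 without cell 52, 1 in cells up to number 48 and 1 with spike-ins of at least 20 UMIs in all (COX7A2 each time), 4 with TMM scaling and 10 with spike-in scaling, which keeps differences in cell size. Over all genes the share above was 11.7%, and 10.2%, 10.6%, 9.34%, 14.7% and 40.2% in these 5 settings (215 genes against 736 with spike-in scaling). The mean pairwise rho of 0.0853 became 0.187 with TMM, 0.554 with spike-in scaling and 0.676 for raw counts, and the median of all pairs of abundant genes was 0.126 with TMM and 0.512 with spike-ins. Under the 7 other settings it ran from 0.0508 to 0.133. The rho of 0.189 between nuclear and mitochondrial COX shares was 0.318 with DESeq2 size factors and 0.531 with spike-in scaling, and Pearson's r was -0.38, which turned positive without cell 52. The median summed share moved by less than its SD under all 4 settings. No paired analysis was possible because the labels give 1 group. Depth allowed a test of 16 of 27 assembly genes and 4 of 16 regulators.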

Other observations

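Across abundant genes, rho with the nuclear COX share was on the whole higher for genes with a shorter median annotated transcript, with exceptions at both ends. Lengths were taken as the median over the protein-coding transcripts of a symbol in GENCODE release 29, which had a value for 419 of the 450 other genes with a mean of at least 20 UMIs. Across these genes, which are not independent replicates, Spearman's rho between length and the gene's rho with the COX share was -0.442, and -0.427 without cell 52. Without ribosomal protein genes it was -0.388 over 342 genes. The 50 genes most like the COX share had a median length of 644 bases and the 50 least like it 1293. Among the genes at the ends, PARP1 (562 bases) and H3F3B (581) had short medians and were among the 4 lowest. NDUFA4 (2130) had a long median and was among the 8 highest. A median over annotated transcripts need not be the length of the mRNA present in these cells, so these exceptions may lie in the measure. By the same measure the 10 subunit genes ran from 423 bases (COX7A2) to 716 (COX4I1).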
